A study of Mus musculus with 412 samples.

Results

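Stk32a, Syt15, Unc5d and Vmn1r85 are 4 of the 45513 genes in the deposited table, and they are described here in single mouse sensory neurons that innervate the colon. The 4 genes were listed as markers of neurons with Trpa1 with earlier results of these same data known, so their levels in such neurons are a description and not a test. Neurons with both Trpa1 and Gfra3 at 10 or more TPM, 147 of 325, form the reference group. TPM here is the deposited value taken off its log2 scale and rescaled so that the genes of each neuron sum to 1000000. It is relative to gene length, and every share below is of neurons at 10 TPM or more unless another level is given.

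The neurons came from C57BL/6J mice, for which the labels name no other allele or treatment, and in which Fast Blue, a tracer carried back from nerve endings to the cell body, had been injected into the colon wall. Dorsal root ganglia of the thoracolumbar segments T10-L1 (TL) and of the lumbosacral segments L5-S2 (LS) were cultured separately after dissociation, and traced neurons were picked by hand for Smart-seq2, which amplifies the polyadenylated RNA of 1 cell without molecular identifiers. The table holds 167 TL and 158 LS neurons on 6 plates, with 90 TL and 57 LS neurons in the reference group. The mouse of each neuron is not named, so TL and LS each count as 1 sample and no test between them was possible. The neurons had been dissociated and cultured, and tracing from the wall does not say which layer of the colon a neuron supplied.

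In GRCm38, the genome build of the files, Stk32a lies at chr18:43207583-43318682 on the plus strand, Syt15 at chr14:34219595-34230420 on the plus strand, Unc5d at chr8:28646717-29219636 on the minus strand and Vmn1r85 at chr7:13083313-13095173 on the minus strand. These positions are those of the GENCODE M21 annotation. The lengths that the values imply were 3765 bases for Stk32a, 5165 for Syt15, 8922 for Unc5d and 927 for Vmn1r85. For Vmn1r85 this was the single coding exon alone (chr7:13084289-13085215), without the untranslated exons of the later annotation. A lincRNA and a pseudogene on the opposite strand overlapped the outer part of the Vmn1r85 gene but not this exon, 3 same-strand transcripts of unsettled type (Gm9911, Gm45652 and Svet1) lay within Unc5d, and no annotated gene overlapped Stk32a or Syt15.

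Trpa1 is an ion channel opened by irritant chemicals, and Gfra3 is the co-receptor through which the growth factor artemin signals by way of Ret. Both are found in peptidergic nociceptors, the sensory neurons that release neuropeptides and respond to damaging stimuli. The study also reports Trpa1 in its non-peptidergic class. The 4 genes come from unrelated families. Stk32a encodes a serine/threonine kinase of the AGC group, Syt15 a synaptotagmin of a family that acts in membrane trafficking, Unc5d a receptor for the guidance cues of the netrin and FLRT families, and Vmn1r85 a type 1 vomeronasal receptor, of a family best known as pheromone receptors of the vomeronasal organ.

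Since vomeronasal receptors form a large family of similar genes, the Vmn1r85 coding sequence was set against its closest relative to show how far reads on them can be told apart. Of 205 type 1 vomeronasal receptor genes compared, Vmn1r89 was the closest by number of identical bases, with 656 of 916 aligned bases identical (71.6%). Vmn1r86 (71.0%), Vmn1r88 (69.1%) and Vmn1r87 (61.1%) followed. The next gene, Vmn1r235, aligned over 54 bases only, since end gaps carried no penalty. Genes beyond those named were thus not compared along their whole coding sequence. The 90-base stretch in which Vmn1r85 and Vmn1r89 were most alike, bases 268 to 357 of the Vmn1r85 coding sequence (chr7:13084859-13084948, minus strand), is shown 5′ to 3′ with the 15 bases that differ in capitals.
Vmn1r85: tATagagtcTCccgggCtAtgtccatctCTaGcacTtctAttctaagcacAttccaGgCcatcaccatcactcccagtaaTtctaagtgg
Vmn1r89: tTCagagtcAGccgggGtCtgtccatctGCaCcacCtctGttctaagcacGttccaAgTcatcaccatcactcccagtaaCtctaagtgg
The longest run of identical bases between the pair was 21, and none of the 878 windows of 50 bases in the Vmn1r85 coding sequence occurred in a transcript of any other gene. The same was true of all windows of Unc5d, while 2.46% of those of Syt15 and 0.338% of those of Stk32a, each in its longest transcript, were also found in other genes.

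Stk32a was the most widely expressed of the 4. Its level in the 147 reference neurons ranged from 0 through a median of 19.4 to 183 TPM, and 102 of them (69.4%, exact Clopper-Pearson 95% interval 61.3 to 76.7) were at 10 or more. In the 178 other neurons the range was 0 to 33.9 with a median of 1.45, and 25 (14.0%, 9.30 to 20.0) were at 10 or more. The groups thus overlapped: 16 reference neurons held no Stk32a read, and 119 of the 178 other neurons held at least 1. All such intervals cover counting error alone.

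Syt15 and Unc5d were found at lower levels and in fewer neurons, again mostly inside the reference group. Syt15 reached 29.0 TPM in reference neurons with a median of 1.03, and 34 of 147 (23.1%, 16.6 to 30.8) were at 10 or more against 3 of 178 others (1.69%, 0.349 to 4.85). Unc5d reached 32.9 with a median of 4.66, and 34 of 147 (23.1%, 16.6 to 30.8) were at 10 or more against 1 of 178 others (0.562%, 0.0142 to 3.09). Although the pair had equal shares at this level, Unc5d reads were found in 120 of the 147 reference neurons (81.6%) and Syt15 reads in 85 (57.8%). Unc5d is the longer gene, so 10 TPM stood for a median of 109 reads of Unc5d but 62.9 of Syt15; by CPM, the reads of a gene per 1000000 reads of the neuron without regard to length, 61.9% of reference neurons were at 10 or more for Unc5d and 34.0% for Syt15.

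Vmn1r85 was the rarest and had the fewest reads behind it. It was at 10 or more in 21 of 147 reference neurons (14.3%, 9.07 to 21.0) and in 0 of 178 others, which allows a share of up to 1.69%. In those 21 neurons its median was 24.3 TPM and its highest level 116, from 8 to 178 reads with a median of 29. Over the whole table it had 997 reads in 50 neurons, of which 980 lay in 47 reference neurons and the other 17 in 3 neurons outside. By CPM, where the short coding exon carries less weight, 4.76% of reference neurons were at 10 or more.

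As ratios of means with 0.1 added to both, reference against other neurons, the differences were 2.96 for Stk32a, 2.63 for Syt15, 3.25 for Unc5d and 5.18 for Vmn1r85 on the log2 scale. The mean in reference neurons was above that in other neurons in each of the 5 plates that held both groups, for all 4 genes. How often this held for all genes tested is not given here, so it is a description of genes chosen as markers of such neurons. For 11450 genes at 10 or more in at least 20 neurons, 3.38% were at least 2-fold higher in reference neurons and 5.63% at least 2-fold lower; the 4 members, chosen with these values known, were all among the first.

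**Figure D1:**
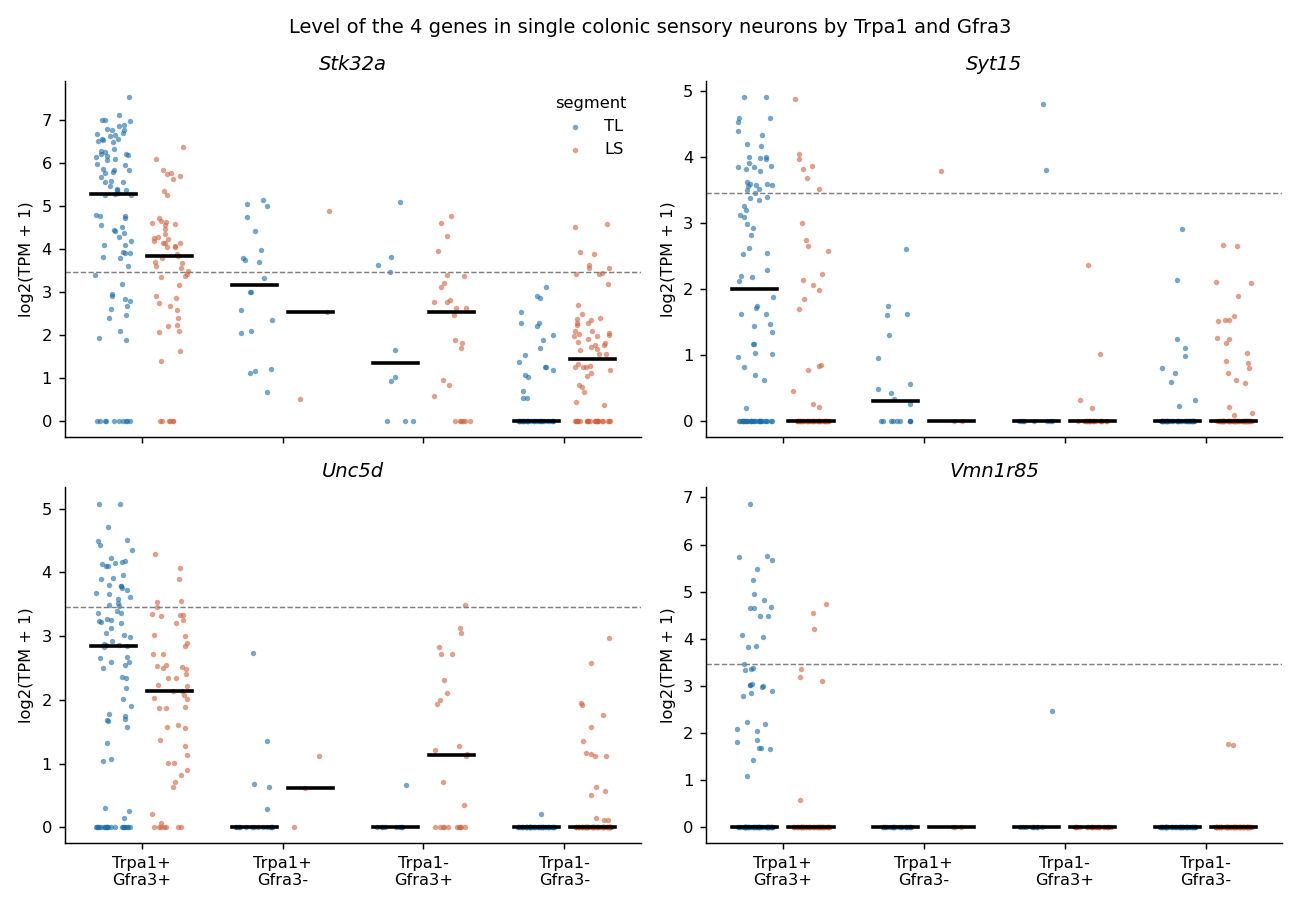
Level of each gene in every neuron (points), as log2 of the TPM plus 1, for neurons with and without Trpa1 and Gfra3 at 10 or more, from TL (blue) and LS (orange) ganglia; black lines are medians and the dashed line marks 10 TPM. Vmn1r85 exceeds the line only among the 147 neurons with both genes, whereas Stk32a also does so in 25 of the 178 others.

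The classes outside the reference group differed in which member they held. Of 23 neurons with Trpa1 but no Gfra3, 10 (43.5%, 23.2 to 65.5) were at 10 or more for Stk32a, 1 for Syt15, and none for Unc5d or Vmn1r85, where 0 of 23 allows up to 13.0%. All 10 of those Stk32a neurons also had Mrgprd, Gfra2 and P2rx3, which mark non-peptidergic nociceptors, against 3, 4 and 11 of the 13 without Stk32a. The same 10 also all had Calca, which encodes CGRP of peptidergic neurons, and Piezo2 and Nefh of mechanosensory and neurofilament-rich neurons, as did all 13 without Stk32a. Calca was also at 10 or more in 109 of 119 neurons with neither Trpa1 nor Gfra3, so this level does not set peptidergic neurons apart. The study describes its non-peptidergic class as lacking Calca but as expressing Piezo2, which it also reports in its neurofilament classes. Whether these 10 belong to the non-peptidergic class was not tested. Of 36 neurons with Gfra3 but no Trpa1, 8 had Stk32a (22.2%, 10.1 to 39.2), 2 had Syt15 and 1 had Unc5d. Of 119 neurons with neither, 7 had Stk32a (5.88%, 2.40 to 11.7), all from LS ganglia, and none had another member. The classes differed in segment. Within TL, Stk32a was at 10 or more in 9 of 20 neurons with Trpa1 but no Gfra3 (45%). It was so in 4 of 10 TL neurons with Gfra3 but no Trpa1 (40%). Within LS these counts were 1 of 3 and 4 of 26. Stk32a was therefore seen in neurons with either gene without the other, while Unc5d at 10 or more was seen only with Gfra3 in this table.

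Close to the limit of the reference rule, 10 neurons had the lower of Trpa1 and Gfra3 between 10 and 20 TPM. Of these, 3 had Stk32a and 1 each Syt15 and Unc5d. The 3 neurons with the lower of the pair between 5 and 10 included 1 with Stk32a and 1 with Unc5d. None of these 13 had Vmn1r85.

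In single neurons, Syt15 and Unc5d were nearly always accompanied by Stk32a. Of the 37 neurons with Syt15, 34 also had Stk32a (91.9%, 78.1 to 98.3), as did 33 of the 35 with Unc5d (94.3%, 80.8 to 99.3), which made up 26.8% and 26.0% of the 127 Stk32a neurons. Syt15 and Unc5d met in 13 neurons, 35.1% of the first and 37.1% of the second, all of which had Stk32a too. Among reference neurons, 32.4% of those with Stk32a (23.4 to 42.3) had Syt15 against 1 of 45 without it (2.22%), and 31.4% (22.5 to 41.3) had Unc5d against 2 of 45 (4.44%). Within TL reference neurons, 40.3% of those with Stk32a had Syt15 and the same share Unc5d, against 0 and 2 of the 23 without it. Within LS the intervals overlapped, at 17.1% (6.56 to 33.6) against 4.55% (0.115 to 22.8) for Syt15 and 14.3% (4.81 to 30.3) against 0 of 22 for Unc5d.

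Vmn1r85 did not follow Stk32a in this way. Of its 21 neurons, 16 had Stk32a (76.2%, 52.8 to 91.8), 5 had Syt15 and 7 had Unc5d. In reference neurons its share was 15.7% with Stk32a (9.24 to 24.2) and 11.1% without (3.71 to 24.1), and among TL reference neurons alone 19.4% with and 21.7% without. The intervals overlapped in both cases. Only 1 neuron, from TL ganglia, had all 4 members, and 39 of 147 reference neurons (26.5%) had none.

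**Figure D2:**
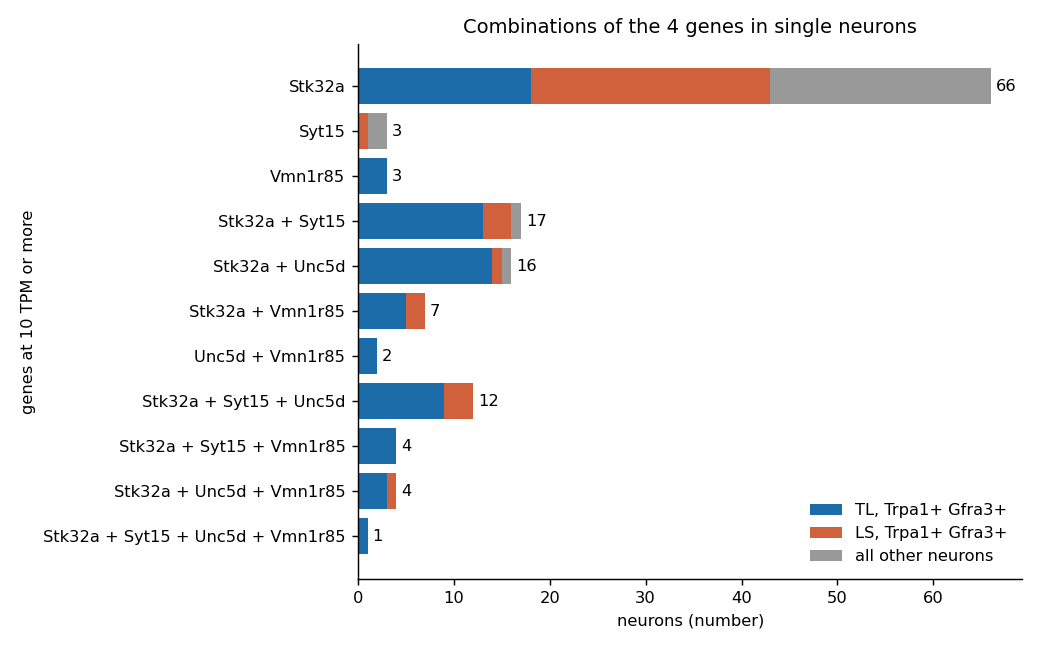
Number of neurons with each combination of the 4 genes at 10 or more TPM, split into TL reference (blue), LS reference (orange) and all other neurons (grey). Stk32a alone is the most frequent with 66 neurons, and no neuron had Unc5d alone.

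Within the reference group the members also differed in how they varied with Trpa1. Across the 147 neurons, which share plates and culture and are not independent replicates, Spearman's rho with Trpa1 was 0.59 for Stk32a, 0.50 for Syt15 and 0.53 for Unc5d, and 0.0063 for Vmn1r85. Within TL it was 0.56, 0.47, 0.62 and -0.10, and within LS 0.36, 0.37, 0.17 and -0.05, in the same order. The relation was not particular to Trpa1 in TL, where rho with Gfra3 was 0.62, 0.48, 0.52 and 0.08. Within LS, rho with Gfra3 was 0.36, -0.01, 0.03 and -0.12. Stk32a was at 10 or more in 20 of 49 neurons with the lowest Trpa1 levels (40.8%, Trpa1 11.5 to 150 TPM), in 36 of 49 with middle levels (73.5%, 154 to 579) and in 46 of 49 with the highest (93.9%, 602 to 1695). Unc5d went from 4.08% through 20.4% to 44.9% and Syt15 from 6.12% through 28.6% to 34.7%. For Vmn1r85 the shares were 16.3%, 18.4% and 8.16%, with intervals that all overlapped. These groups pool segments whose mix differed, with 23 TL and 26 LS neurons in the lowest and 37 and 12 in the highest. Within TL, Unc5d went from 4.35% through 23.3% to 56.8% and Syt15 from 8.7% through 33.3% to 40.5%. Within LS, Unc5d went from 3.85% through 15.8% to 8.33% and Syt15 from 3.85% through 21.1% to 16.7%, with overlapping intervals. Stk32a went from 34.8% through 73.3% to 100% in TL and from 46.2% through 73.7% to 75% in LS. Stk32a, Syt15 and Unc5d also had a rho of 0.32, 0.40 and 0.44 with the number of genes above 0 in a neuron, against 0.04 for Vmn1r85; the part of this in the relation to Trpa1 was not tested.

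**Figure D3:**
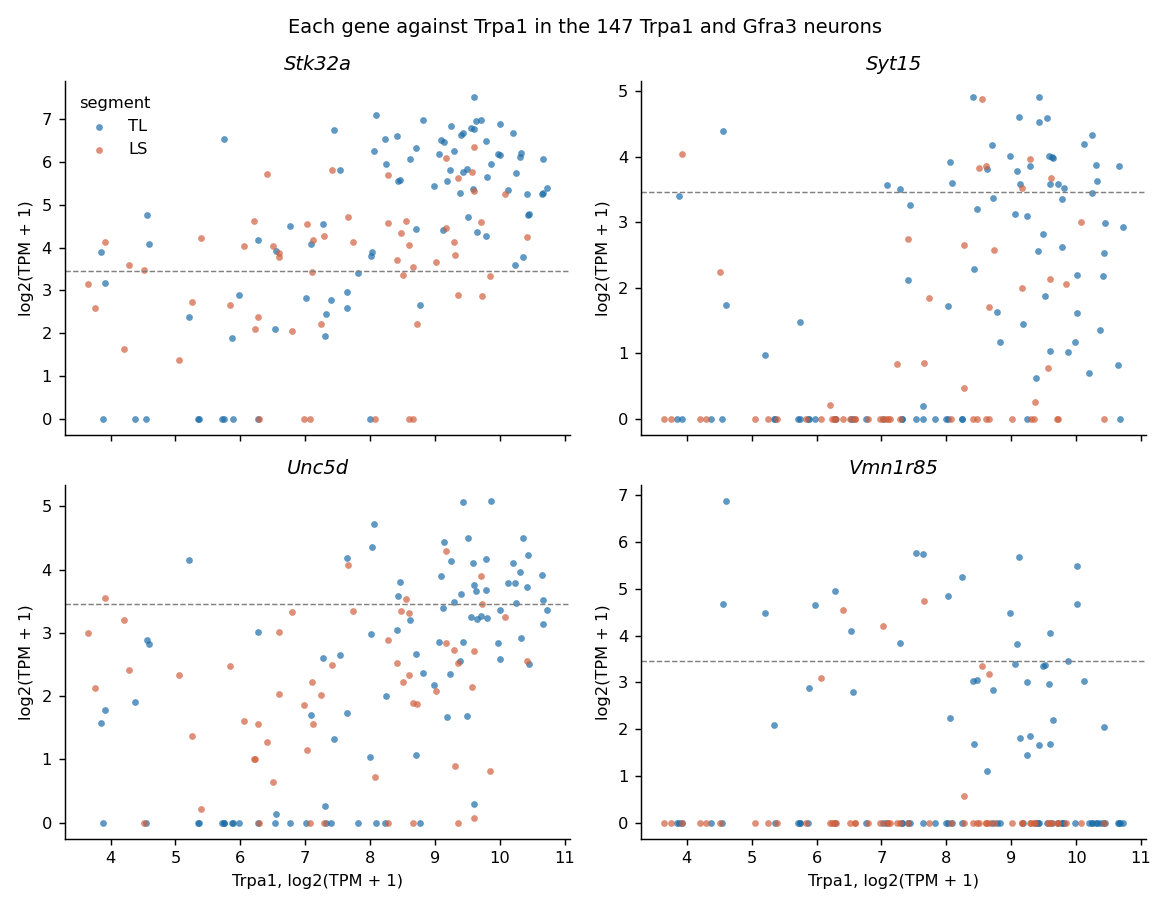
Level of each gene against that of Trpa1 in the 147 reference neurons, both as log2 of the TPM plus 1, from TL (blue) and LS (orange) ganglia; the dashed line marks 10 TPM. Stk32a passes the line in 40.8% of the 49 neurons lowest in Trpa1 and 93.9% of the 49 highest, whereas Vmn1r85 does so in 16.3% and 8.16%.

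The TL and LS pathways reach the colon by the splanchnic and pelvic nerves, and all 4 genes had higher means in TL reference neurons. Stk32a ranged from 0 through a median of 37.9 to 183 TPM in the 90 TL reference neurons and from 0 through 13.1 to 80.8 in the 57 LS ones. The share at 10 or more was 74.4% in TL (64.2 to 83.1) and 61.4% in LS (47.6 to 74.0). The groups overlapped over most of the LS range, and what differed most was the upper part of the distribution: at 20 or more the shares were 62.2% and 28.1%. The share at 10 or more was higher in TL in only 2 of 5 plates, while the mean was higher in each of the 5, as was that of 8.68% of all genes tested.

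Syt15 was at 10 or more in 27 of 90 TL reference neurons (30.0%, 20.8 to 40.6) and 7 of 57 LS ones (12.3%, 5.08 to 23.7), with medians of 3.00 and 0. Unc5d was at 10 or more in 29 TL neurons (32.2%, 22.8 to 42.9) and 5 LS neurons (8.77%, 2.91 to 19.3), with medians of 6.20 and 3.41, but any Unc5d read was found in 77.8% of TL and 87.7% of LS reference neurons. Vmn1r85 was at 10 or more in 18 TL neurons (20.0%, 12.3 to 29.8) and 3 LS neurons (5.26%, 1.10 to 14.6), and at 0 in 50 of each. At 10 TPM or more, only for Unc5d did the intervals of TL and LS, which cover counting error alone, not overlap. For Unc5d this did not hold in reads without regard to length. By CPM its shares were 64.4% in TL (53.7 to 74.3) and 57.9% in LS (44.1 to 70.9). With reads thinned to 500000 per neuron and 5 or more reads needed, they were 68.9% and 57.4%, with overlapping intervals. At 1 TPM or more the order turned, with 74.4% in TL and 77.2% in LS. In plate 6 Unc5d was most frequent, and without that plate its TL share was 23.5% and its LS share 6.67%, with intervals that overlapped (14.1 to 35.4 and 1.40 to 18.3). For Syt15 and Vmn1r85 the size of the gap depended on the setting, while its direction did not. Syt15 was at 43.3% in TL and 19.3% in LS by CPM, at 63.3% and 29.8% for 1 TPM, and at 5.56% and 1.75% for 20 TPM. Vmn1r85 was at 44.4% and 10.5% for 1 TPM, and at 7.78% and 0 by CPM.

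The ratios of TL to LS means were 1.37 for Stk32a, 1.22 for Syt15, 0.74 for Unc5d and 2.23 for Vmn1r85 on the log2 scale, and the TL mean was higher in 5 of 5 plates for each gene. Of all 11450 genes tested, 4.87% were at least 2-fold higher in TL and 2.8% at least 2-fold lower. Trpa1 itself had a median of 428 TPM in TL and 201 in LS reference neurons, and Gfra3 of 1285 and 1427. In the 49 neurons highest in Trpa1, Stk32a was at 10 or more in 37 of 37 TL and 9 of 12 LS neurons, Syt15 in 15 and 2, Unc5d in 21 and 1, and Vmn1r85 in 4 and 0.

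Combinations were more frequent in TL. At least 2 members were at 10 or more in 51 of 90 TL reference neurons (56.7%, 45.8 to 67.1), in 10 of 57 LS reference neurons (17.5%, 8.75 to 29.9) and in 2 of 178 others (1.12%, 0.136 to 4.00). At least 3 were at this level in 17 TL and 4 LS reference neurons, and in none of the others. The intervals for at least 2 members did not overlap between TL and LS, but they cover counting error alone and each segment is 1 sample. These counts are built from the shares of the single members and are not separate support for them.

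**Figure D4:**
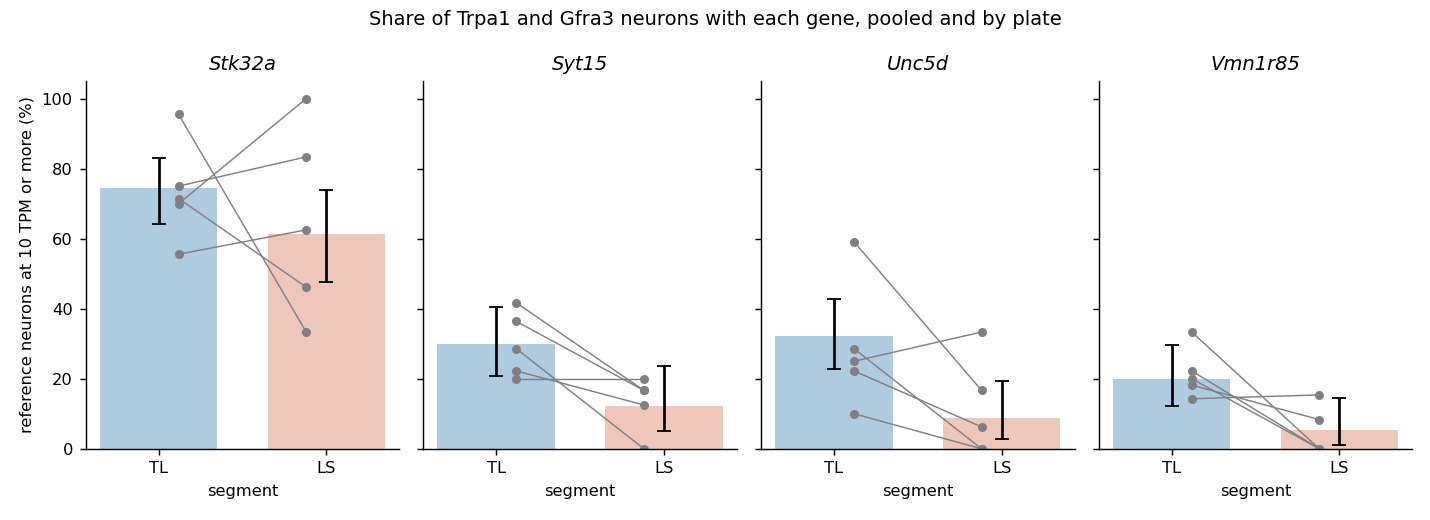
Share of reference neurons at 10 or more TPM for each gene by segment, as bars for all plates with exact 95% intervals for counting error, and as grey points joined by plate for plates 2 to 6. The pooled share of Stk32a is 74.4% in TL and 61.4% in LS but the lines of single plates cross, whereas 4 of 5 plates have the higher share in TL for Syt15, Unc5d and Vmn1r85.

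The 8 sensory neuron markers (such as Avil, Prph and Tubb3) summed to a median of 14953 TPM in TL and 15647 in LS reference neurons, and none of them differed 2-fold. Glial markers, on the other hand, moved with segment. All 10 (such as Fabp7 and Apoe, of satellite glia and Schwann cells) had a mean at least 2-fold higher in TL, and their summed level ranged from 5.85 through a median of 2363 to 94349 TPM in TL and from 0.407 through 70.5 to 55122 in LS reference neurons. Among reference neurons below the median of this sum, 34 from TL and 39 from LS ganglia, Stk32a was at 10 or more in 82.4% of TL and 71.8% of LS neurons, Syt15 in 38.2% and 12.8%, Unc5d in 41.2% and 12.8%, and Vmn1r85 in 14.7% and 7.69%. Reference neurons with Stk32a had a median glial sum of 950.5 TPM and those without of 3644, whereas the order was the opposite for Vmn1r85, with 3203 in neurons with it and 1183 in those without. These medians pool both segments, whose mix differed. TL neurons were 18 of the 21 with Vmn1r85 and 72 of the 126 without, and 67 of the 102 with Stk32a and 23 of the 45 without. The part of glial RNA in these values was not tested. Median depth was 2650839 reads in TL and 3265325 in LS reference neurons.

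The LS reference neurons were not uniform. Ntm, a neuronal adhesion molecule, was at 10 or more in 17 of them and in no TL reference neuron. In these 17, Stk32a was at 10 or more in 4 (23.5%, 6.81 to 49.9) and Syt15, Unc5d and Vmn1r85 in none, which allows a share of up to 17.6%. Their median Trpa1 was 90.2 TPM and their median Gfra3 1308. In the 40 LS reference neurons without Ntm, Stk32a was at 10 or more in 31 (77.5%, 61.5 to 89.2), Syt15 in 7 (17.5%), Unc5d in 5 (12.5%) and Vmn1r85 in 3 (7.5%). Against TL, the order of the Stk32a shares was thus reversed without the Ntm neurons, although the LS mean stayed lower, at 22.6 against 46.1 TPM. For the other 3 members the TL share remained the higher.

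The shares of other listed genes were compared between reference neurons with and without a member, as a description. In the TL reference group, Piezo2, a mechanically gated channel, was at 10 or more in 3 of 67 neurons with Stk32a (4.48%) and 8 of 23 without (34.8%), and Smr2 in 1 and 5. Th, the enzyme that makes the precursor of dopamine, was found in 94.0% with Stk32a and 60.9% without. Flrt3, an adhesion protein of the FLRT family, had a similar pattern for 3 of the members in TL reference neurons, at 20.9% with and 56.5% without Stk32a, 11.1% and 38.1% for Syt15, and 10.3% and 39.3% for Unc5d, while for Vmn1r85 the shares were 27.8% and 30.6%. The Flrt3 intervals with and without the member overlapped for Syt15 (2.35 to 29.2 and 26.1 to 51.2) and for Unc5d (2.19 to 27.4 and 27.1 to 52.7). So did those of Smr2 for Stk32a (0.0378 to 8.04 and 7.46 to 43.7). Nefh, the heavy neurofilament chain, was at 10 or more in 11 of 18 TL reference neurons with Vmn1r85 (61.1%) and 60 of 72 without (83.3%). For the other members its TL shares were 79.1% and 78.3% for Stk32a, 74.1% and 81.0% for Syt15, and 79.3% and 78.7% for Unc5d. The segment mattered for such shares: Crhr2, a receptor for urocortins, was found over both segments in 20.6% of reference neurons with Syt15 and 44.2% without, whereas in TL alone the shares were 22.2% and 20.6%. Nrp1, a co-receptor for semaphorins, likewise went from 82.4% against 48.7% over both segments to 77.8% against 65.1% in TL. Of the 8 peptidergic genes, Trpv1, Calca and Tac1 were at least 2-fold higher in reference neurons than in others, while all 9 tested genes of the neurofilament and mechanosensory list and all 3 tested non-peptidergic genes were at least 2-fold lower. The former list also holds Smr2, which the study uses as a marker of a peptidergic class.

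Each member was set among its own family. Of the STK32 kinases, Stk32c was widespread, at 10 or more in 67.3% of reference and 53.9% of other neurons, and Stk32b reached this level in no neuron. Of 17 synaptotagmins, 13 were tested, with Syt15, Syt9 and Syt10 at least 2-fold higher in reference neurons and Syt2, Syt3 and Syt6 at least 2-fold lower. Syt15 had the smallest share of the 3 higher ones, against 95.9% for Syt9 and 37.4% for Syt10, and Syt10 was the higher in LS, with 64.9% of LS and 20.0% of TL reference neurons. Syt1, Syt4, Syt5 and Syt11 were at 10 or more in 95.2% to 100% of reference neurons.

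Unc5d was the only 1 of the 4 Unc5 receptors with a higher mean in reference neurons by 2-fold or more; Unc5b was at 10 or more in 10.2% of reference and 10.7% of other neurons, Unc5a in 1.36% and 1.69%, and Unc5c in none. The netrin receptor Dcc was at 10 or more in no neuron. Of 13 netrin and FLRT genes, 5 were tested and 2 were at least 2-fold higher, the other being Flrt1, an adhesion protein of the FLRT family, found in 24.5% of reference and 1.69% of other neurons. Flrt3 was found in 39.5% of reference and 66.9% of other neurons.

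Of 278 vomeronasal type 1 receptor genes and pseudogenes in the table, 80 had a read in any neuron, 11 reached 10 TPM in any neuron and 2 were tested. The other was Vmn1r181, which was at 10 or more in 12 reference and 12 other neurons, against 21 and 0 for Vmn1r85. Vmn1r89, the closest relative of Vmn1r85, was at 10 or more in 5 neurons, all in the reference group, 1 of which had Vmn1r85. Vmn1r86 and Vmn1r87 reached 10 TPM in no neuron. Trpc2, the channel through which vomeronasal neurons transduce pheromone signals, was at 10 or more in 0 of 325 neurons, which allows a share of up to 0.923%. Omp, the olfactory marker protein, was found in 68.0% of reference and 21.9% of other neurons, and in 17 of the 21 neurons with Vmn1r85. These belong to a list of 6 vomeronasal transduction genes, of which 5 were tested. Of those, 1 was at least 2-fold higher in reference neurons and 2 at least 2-fold lower. Gnai2 and Gnao1 of this list were at 10 or more in every reference neuron, and Gng13 in none.

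The genes most like each member were ranked by Spearman's rho over the 325 neurons among the tested genes, as a description. Stk32a was most like Trpa1 (0.70), then Frzb, a secreted Wnt antagonist (0.69), Ina, an intermediate filament (0.68), Tnfaip8l3 (0.68) and the receptor tyrosine kinase Ret (0.67). Syt15 was most like Trpa1 (0.51) and Stk32a (0.50), then Tmem150c (0.50), the receptor Gpr35 (0.50) and Calcb, which encodes a form of CGRP (0.48). Unc5d was most like Adra2a, the alpha-2A adrenoceptor (0.78), then the matrix proteoglycan gene Vcan (0.74), the nicotinic subunit Chrnb3 (0.73) and Frzb (0.73). Adra2a was at 10 or more in 70.7% of reference and 8.43% of other neurons, and in 32 of the 35 with Unc5d.

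Vmn1r85 was most like Lig1, a DNA ligase (0.50), followed by Orm3 (0.47), Cacng3, an auxiliary subunit of glutamate receptors (0.44), Lcorl (0.44) and Adra2a (0.43). Lig1 was at 10 or more in 19 of the 21 neurons with Vmn1r85 (90.5%, 69.6 to 98.8) and in 73 of the 126 reference neurons without it (57.9%, 48.8 to 66.7), with medians of 82.9 and 12.4 TPM. It was also found in 33 of the 178 other neurons, none of which had Vmn1r85. The rho within the reference group was 0.59, and it was 0.64 in TL and 0.39 in LS reference neurons. Lig1 lies 182110 bases from Vmn1r85 on the opposite strand, and the other 9 tested genes within 250 kb had a rho between -0.15 and 0.11.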

How the data were processed

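The authors demultiplexed 75 bp paired-end reads with bcl2fastq 2.15.0.4, aligned them with STAR 2.4.1 to GRCm38.p3 and counted them on Ensembl genes with featureCounts 1.4.4, as the submitters' processing notes and the study's methods state. The table deposited by the authors gives log2(x + 1) for 325 of 399 neurons, and was handled as a score, because x summed differently in each neuron. 13 bath controls and 74 neurons were not analysed here. Here x was rescaled to 1000000 per neuron (TPM). Whole reads were recovered from x with GENCODE M21 exonic lengths, which made 65.0% of values above 0 whole within a relative tolerance of 1e-10, and with lengths found from the values for 8712 other genes; they ranged from 416007 to 12058968 per neuron, with a median of 2867071. Reads are not molecules, so intervals cover counting error only.

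Each segment counted as 1 sample and no p-value was computed, and plates 2 to 6 were used as strata, since plate 1 held 5 TL neurons only. Shares have exact Clopper-Pearson 95% intervals, a count of 0 allows 3 counts, and ratios of means had 0.1 added to both. The members and gene lists were chosen with earlier results of these data known. The genes named were the members, Trpa1, Gfra3, the 5 genes most like each member by Spearman's rho among those at 10 or more in at least 20 neurons, and genes of fixed lists, some of which are not reported here; Lig1 with and without Vmn1r85, neighbouring genes, the split by Ntm and the grouping by Trpa1 level were chosen after values were seen. Coding sequences of the vomeronasal receptors were aligned with Biopython 1.88 without penalty for end gaps. Alternatives changed the unit, depth, threshold, reference rule, neurons and plates. Read recovery and ratios were tested on simulated data. Python 3.11.15, numpy 2.4.6, pandas 2.3.3, scipy 1.17.1 and matplotlib 3.10.9 were used.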

Additional observations from a re-analysis of the deposited data

How the results depend on the processing

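Of 344 values recomputed under an alternative, 266 moved by less than their counting interval or spread and 78 moved further. Most were shares, which have no direction. The order of TL and LS is given at the end. Leaving out plate 1 could not move a share of reference neurons, because that plate held none. The threshold and the unit moved the shares most; neurons were assigned to the reference group as before in these settings. At a threshold of 1, 5 and 20 TPM, the reference share was 89.1%, 81.0% and 49.0% for Stk32a, 50.3%, 33.3% and 4.08% for Syt15, and 75.5%, 46.9% and 4.08% for Unc5d, and for Vmn1r85 31.3% at 1 and 23.8% at 5. Among other neurons Stk32a gave 59.0%, 25.3% and 6.18%, Unc5d 15.7%, 4.49% and 0, and Syt15 15.2% at 1. In TL the shares were 88.9%, 83.3% and 62.2% for Stk32a, 63.3%, 43.3% and 5.56% for Syt15, and 74.4%, 56.7% and 6.67% for Unc5d, with 44.4% and 32.2% for Vmn1r85 at 1 and 5. In LS they were 89.5%, 77.2% and 28.1% for Stk32a, 77.2%, 31.6% and 0 for Unc5d, and 29.8% at 1 and 1.75% at 20 for Syt15.

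By CPM the reference shares were 34.0% for Syt15, 61.9% for Unc5d and 4.76% for Vmn1r85, those of other neurons 21.3% for Stk32a and 7.87% for Unc5d, those of TL 43.3%, 64.4% and 7.78% for Syt15, Unc5d and Vmn1r85, and those of LS 57.9% for Unc5d and 0 for Vmn1r85. Reads were also thinned to 500000 per neuron, which sets length aside too. Neurons then counted at 5 or more reads of a gene, and 4 neurons with fewer than 500000 reads, 3 of them reference neurons, were left out. The shares after thinning were 77.1%, 34.0%, 64.6% and 5.56% for Stk32a, Syt15, Unc5d and Vmn1r85 in reference neurons, 23.2% for Stk32a and 8.47% for Unc5d in others, 42.2%, 68.9% and 7.78% for Syt15, Unc5d and Vmn1r85 in TL, and 57.4% for Unc5d in LS. With Trpa1 and Gfra3 both at 50 or more, Stk32a was at 83.1% in TL. Among the 49 reference neurons highest in Trpa1, the TL shares were 100% for Stk32a, 56.8% for Unc5d and 10.8% for Vmn1r85, and the LS shares 75% for Stk32a and 0 for Vmn1r85; with Ntm under 10, Stk32a was at 77.5% in LS. These last 2 settings were chosen after seeing the data.

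The log2 ratio of reference to other neurons was 3.55 for Stk32a without rescaling; as a difference of mean log2(x + 1) it was 2.57 for Stk32a, 1.22 for Syt15, 1.88 for Unc5d and 1.08 for Vmn1r85. With both reference genes at 50 or more it was 2.80 for Unc5d and 2.40 for Vmn1r85, and for Vmn1r85 it was 4.20 by CPM and 3.46 after thinning. With genes at 10 or more in at least 5 neurons as the background, 5.37% were at least 2-fold higher in reference neurons, 8.27% higher in TL and 5.67% lower in TL.

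Leaving out 1 plate at a time, the shares for Stk32a, Syt15, Unc5d and Vmn1r85 ran from 66.9% to 72.6%, 21.2% to 24.8%, 16.8% to 26.0% and 13.2% to 15.0% in reference neurons, from 12.2% to 15.2%, 1.32% to 2.21%, 0 to 0.730% and 0 to 0 in others, from 67.6% to 79.2%, 27.9% to 31.9%, 23.5% to 35.0% and 17.9% to 22.6% in TL, and from 53.2% to 68.9%, 10.6% to 15.9%, 5.88% to 11.4% and 2.27% to 7.32% in LS. The 1 Unc5d neuron outside the reference group was on plate 6. The log2 ratios ran from 2.89 to 3.07, 2.31 to 2.84, 3.08 to 3.35 and 4.98 to 5.39.

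The TL share was above the LS share in 20 of 20 settings for Syt15 and Vmn1r85, in 19 for Unc5d and in 17 for Stk32a. These settings include the main one, which the setting without plate 1 repeats because plate 1 held no reference neuron. The exceptions were a threshold of 1 for Unc5d (74.4% and 77.2%) and, for Stk32a, a threshold of 1 (88.9% and 89.5%), plate 6 left out (67.6% and 68.9%) and Ntm under 10 (74.4% and 77.5%). No paired analysis was possible because the replicate numbers, given in accession order, do not pair neurons. Plates 2 to 6 held both segments, and within them the log2 ratio of TL to LS means ran from 0.84 to 1.86 for Stk32a, 0.38 to 3.11 for Syt15, 0.14 to 0.99 for Unc5d and 0.61 to 5.76 for Vmn1r85. With 1 sample a segment, mouse, culture and segment cannot be told apart.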
